A study of Homo sapiens with 4 samples.

Results

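The BTG/TOB antiproliferative genes and the deadenylases of the CCR4-NOT complex were followed in MV4-11 cells, a human acute myeloid leukemia (AML) cell line, after knockdown of ANP32B. The genes were chosen by name, as BTG1, BTG2, BTG3, TOB1, TOB2, CNOT7, CNOT8, CNOT6 and CNOT6L, with earlier results of these libraries known. Of these 9 genes, 8 had a row among the 18885 genes of the expression table, and all 8 were among the 16937 genes tested. BTG3 was not analysed here.

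RNA was sequenced from 4 libraries, 2 from control cells (sh-NC) and 2 from cells with ANP32B knocked down (sh-ANP32B). The control cells carry no shRNA according to the sample labels, while the study describes a control hairpin, and the study's group name sh-NC was used. The knockdown cells carried an shRNA against ANP32B, and the study selected its stable lines with puromycin. Effects of transduction and selection cannot be told apart from loss of ANP32B if the controls had neither. The columns of both knockdown libraries share the same prefix, which may stand for a single hairpin of the several in the study. Off-target effects of a hairpin cannot be told apart from loss of ANP32B either. The labels do not say whether the 2 libraries of a group came from separate cultures, so the spread between them may be technical.

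Cytoplasmic mRNA decay usually begins with shortening of the poly(A) tail, and CCR4-NOT is the main complex that does this. It carries a pair of catalytic subunits, one of the CAF1 type (CNOT7 or CNOT8) and one of the CCR4 type (CNOT6 or CNOT6L), held on the scaffold protein CNOT1. BTG and TOB proteins bind the CAF1-type subunit through their conserved N-terminal domain and restrain cell proliferation. BTG2 is known as an early response gene, and BTG1 is recurrently mutated in lymphoid malignancies.

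Levels are given in TPM, a unit in which reads are divided by transcript length and each library is brought to the same total, so levels can be set side by side between genes. TPM keep no read numbers, and the depth of the libraries is unknown. The libraries summed to between 997271 and 998546 TPM. ANP32B, the targeted gene, had 358 and 364 TPM in sh-NC and 54.1 and 49.3 TPM in sh-ANP32B, which left 14.3% of the control mean. Of the markers of myeloid leukemia fixed for the check of the cell type, 5 of 6 had a row, with HOXA9 between 175 and 186 TPM and FLT3 between 5.52 and 6.30 TPM in the 4 libraries. MEIS1 fell from 44.2 and 47.9 TPM to 30.2 and 29.6 TPM (difference -0.61, adjusted p = 0.00138 from limma), and CD33 lay at 0.40 (adjusted p = 0.00300 from limma), inside the limit for a call. CSF1R had 0.960 and 1.39 TPM in sh-NC and 2.36 and 2.04 TPM in sh-ANP32B. With a difference of 0.56 (adjusted p = 0.0828 from limma), CSF1R was not called. MPO had no row, nor did the T cell markers CD3D and CD3E, while CD2 rose from 0.521 and 0.442 TPM to 3.62 and 3.63 TPM (difference 1.64, adjusted p = 0.00172 from limma). The 2 B cell markers with a row summed to between 4.01 and 10.5 TPM. Differences are given as log2(TPM + 1) in sh-ANP32B less that in sh-NC, from limma fitted across all genes tested. Calls required a difference beyond 0.5 and an adjusted p (Benjamini-Hochberg) below 0.05. On these limits 3024 genes (17.9%) rose and 1712 (10.1%) fell, 28.0% in either direction. Lower genes made up 36.1% of the calls as deposited, 50.2% after quantile normalization and 48.9% after median-of-ratios scaling. The median of all genes was 0.08 as deposited and -0.04 after quantile normalization. Permuting 2 libraries against 2 exactly has a smallest two-sided p of 0.33, and the adjusted p-values therefore rest on limma's pooling of the variance over genes.

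BTG2 was the gene of the group that moved most, and the bases upstream of its transcription start are shown here beside those of BTG1, its closest relative, whose level changed little. Both windows hold the 250 bases before the RefSeq start on GRCh38.p14. Capitals mark CCAAT (the CCAAT box), GGGCGG (the GC box), TATAAA (the TATA box), TGACG (part of the cAMP response element), CACGTG (the E box), TGTTTAC (a forkhead motif) and TTCCCGC (an E2F motif), searched on both strands.
BTG2 (chr1:203305269-203305518, plus strand): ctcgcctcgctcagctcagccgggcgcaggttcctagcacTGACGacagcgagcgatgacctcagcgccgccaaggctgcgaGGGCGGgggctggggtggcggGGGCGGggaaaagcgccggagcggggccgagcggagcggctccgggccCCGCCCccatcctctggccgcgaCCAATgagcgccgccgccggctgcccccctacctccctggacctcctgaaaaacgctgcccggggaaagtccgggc
BTG1 (chr12:92145847-92146096, minus strand): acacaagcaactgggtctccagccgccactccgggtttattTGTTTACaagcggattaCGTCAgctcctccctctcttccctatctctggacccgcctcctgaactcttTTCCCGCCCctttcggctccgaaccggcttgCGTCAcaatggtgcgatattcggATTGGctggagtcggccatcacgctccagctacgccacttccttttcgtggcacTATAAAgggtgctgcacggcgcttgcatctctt

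The BTG2 window held GGGCGG at 3 places, at -168, -147 and -99 from the start, CCAAT at -76 and TGACG at -210. The BTG1 window held 1 GGGCGG, which overlaps TTCCCGC, 1 CCAAT, 1 TATAAA at -33, 1 TGTTTAC at -209 and TGACG at 2 places. Among all 35116 promoter windows of 300 bases in the RefSeq table, GGGCGG was found in 45.0%, CCAAT in 34.6%, TGACG in 24.6%, TATAAA in 11.5%, CACGTG in 7.26%, TTCCCGC in 6.55% and TGTTTAC in 3.42%. The TATA box and the forkhead motif were found for none of the other genes, among the 13 windows held for 8 of the 9 genes (BTG3 included, CNOT7 not). The E box was not found in these 13. The GC content was 73.3% for the BTG2 window of 300 bases and 56.0% for that of BTG1. These letters describe the windows and show no bound factor.

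BTG2 stood apart from the other 7 genes. BTG2 (ENSG00000159388) spans positions 203305491 to 203309602 of chromosome 1 (hg38, plus strand), with 2 exons in its canonical transcript. Its level was 3.83 and 3.93 TPM in sh-NC but 26.5 and 26.6 TPM in sh-ANP32B. The groups were far apart and the replicates of each nearly equal, with means of 3.88 ± 0.0719 TPM (SD, n = 2) and 26.6 ± 0.0826 TPM (SD, n = 2). The mean was 6.84-fold higher after knockdown. On the log2(TPM + 1) scale the difference was 2.50 (standard error 0.101), at percentile 99.7 of all genes tested. Above the median of all genes it was 2.42 as deposited, 2.41 after quantile normalization and 2.42 after median-of-ratios scaling. These values belong to the contrast with which the genes were chosen, and they are given as a description without a test.

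BTG1 (chromosome 12, 92140278 to 92145846, minus strand) shares the BTG domain with BTG2 and had the highest control level of the BTG/TOB genes. It had 30.9 and 29.8 TPM in sh-NC and 26.2 and 26.7 TPM in sh-ANP32B, a difference of -0.19 (standard error 0.067). The groups did not overlap, and the knockdown mean was 87.1% of the control mean. BTG1 shares 274 exonic bases with BTG1-DT on the opposite strand and 503 with LINC01619 on the same strand, neither of which had a row, and the handling of strand is not given in the sources used here.

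TOB1 and TOB2 carry the same domain followed by a longer C-terminal part that binds the poly(A)-binding protein. TOB1 (chromosome 17, 50862223 to 50867978) had 7.95 and 8.12 TPM in sh-NC and 6.76 and 5.39 TPM in sh-ANP32B, a difference of -0.36 (standard error 0.147). The knockdown libraries were both below the controls but differed from each other more than any pair of controls did among the BTG/TOB genes on this scale. Without sh-ANP32B replicate 1 the difference was -0.50, and without sh-ANP32B replicate 2 it was -0.22. TOB2 (chromosome 22, 41433494 to 41446801) had 16.9 and 16.7 TPM in sh-NC and 20.6 and 19.2 TPM in sh-ANP32B, a difference of 0.23 (standard error 0.083), with both knockdown libraries above both controls. TOB1 shares 281 exonic bases with TOB1-AS1 on the opposite strand, which had between 0.551 and 1.32 TPM.

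**Figure D1:**
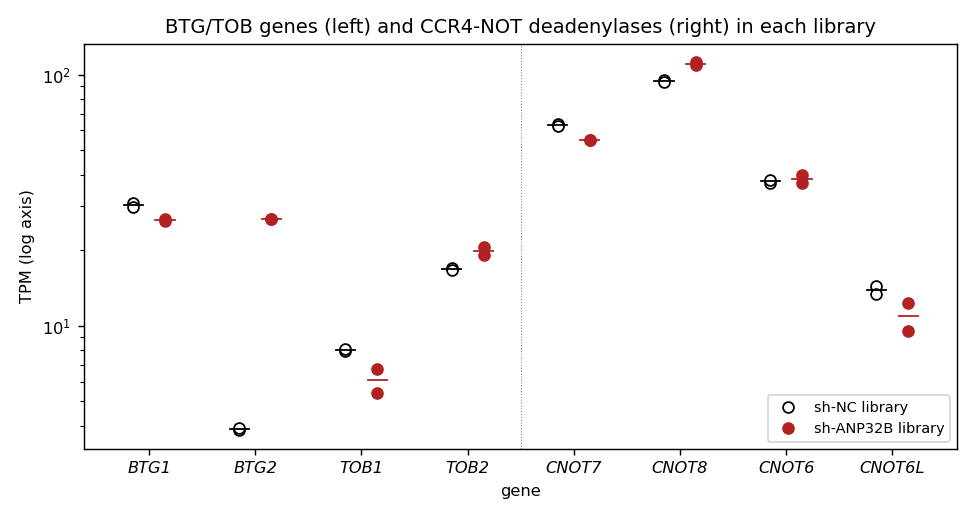
TPM on a log axis for the 4 BTG/TOB genes (left of the dotted line) and the 4 deadenylases (right), with 1 point per library and short bars at the group means (n = 2 per group). BTG2 rises from 3.88 to 26.6 TPM, whereas the other 7 genes keep a mean between 75.6% and 118% of the control mean.

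Among the CAF1-type deadenylases, CNOT8 was the most abundant transcript of the group in every library. CNOT8 (chromosome 5, 154857553 to 154876792) had 95.5 and 93.4 TPM in sh-NC and 112 and 109 TPM in sh-ANP32B, a difference of 0.22 (standard error 0.044). Its paralogue CNOT7 (chromosome 8, 17224966 to 17246878) had 63.4 and 62.7 TPM in sh-NC and 55.0 TPM in both sh-ANP32B libraries, a difference of -0.19 (standard error 0.049). The paralogues thus stood on opposite sides of 0, and neither group overlapped the other for either gene. The ratio of CNOT8 to CNOT7 was 1.51 and 1.49 in the controls, rising to 2.03 and 1.99 after knockdown. Relative to the median of all genes, CNOT8 was at 0.15 as deposited, 0.29 after quantile normalization and 0.13 after median-of-ratios scaling, and CNOT7 at -0.27, -0.14 and -0.29. The annotation names 2 pseudogenes of CNOT7, and 2057 of its exonic bases are shared with a lncRNA on the opposite strand that had no row. CNOT8 shares 163 exonic bases with FAXDC2 on the opposite strand, which had between 1.29 and 2.65 TPM. BTG1, TOB2 and CNOT6L have 1 named pseudogene each.

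The CCR4-type deadenylases were less abundant. CNOT6 (chromosome 5, 180494379 to 180578358) had 37.0 and 38.2 TPM in sh-NC and 37.2 and 39.8 TPM in sh-ANP32B, and it was the only gene of the 8 whose groups overlapped. Its difference of 0.03 (standard error 0.065) turned to -0.06 after median-of-ratios scaling. CNOT6L (chromosome 4, 77713387 to 77819615) had 14.4 and 13.4 TPM in sh-NC and 12.3 and 9.54 TPM in sh-ANP32B, a difference of -0.33 (standard error 0.140). Both knockdown values were below the controls, but without sh-ANP32B replicate 2 the difference was -0.16 and without sh-ANP32B replicate 1 it was -0.50.

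**Figure D2:**
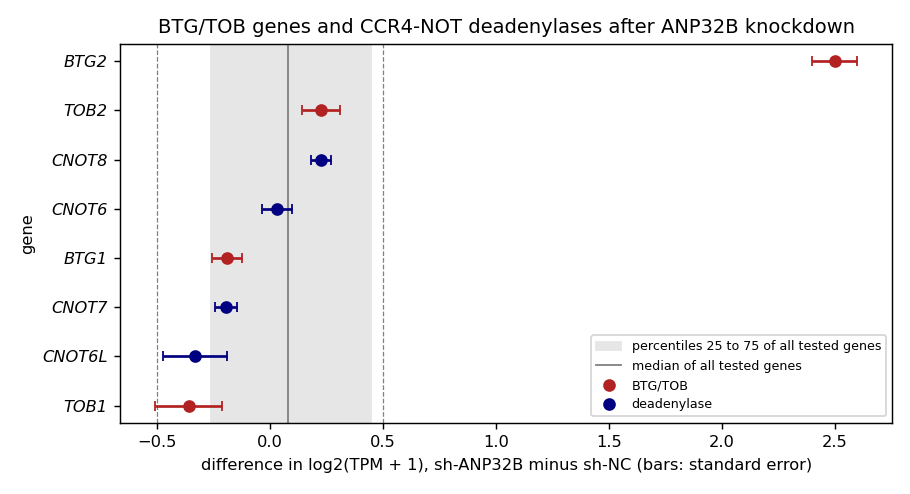
Difference in log2(TPM + 1), sh-ANP32B less sh-NC, for each gene, with bars of 1 standard error from limma. The grey band runs from -0.26 to 0.45, percentiles 25 to 75 of all 16937 genes tested, and the dashed lines mark the limits at 0.5. BTG2 lies at 2.50, and the other 7 genes lie between -0.36 and 0.23.

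Counted on the limits above, 1 of the 8 genes was called, BTG2, against 28.0% of all genes tested. With an adjusted p below 0.05 and no limit on the difference, a setting added after the data had been seen, 3 of the 8 passed (BTG2 and CNOT8 higher, CNOT7 lower), against 45.7% of all genes, 26.0% higher and 19.7% lower. The groups did not overlap for 7 of the 8 genes (87.5%), and the same held for 74.7% of all genes. The median difference over the 8 genes was -0.08, beside 0.08 for all genes. Since the genes were chosen with this contrast known, nothing is read from these counts.

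The order of the levels changed at 1 place. In sh-NC it ran, from the highest mean, CNOT8, CNOT7, CNOT6, BTG1, TOB2, CNOT6L, TOB1 and BTG2, and no neighbours overlapped. In sh-ANP32B, BTG2 had passed TOB1, CNOT6L, TOB2 and BTG1 and stood at rank 4 of 8, while the other 7 kept their order. There BTG2 and BTG1 did not differ beyond their spread, with means of 26.6 and 26.5 TPM. The ratio of BTG2 to BTG1 was 0.124 and 0.132 in the controls, and 1.01 and 0.997 after knockdown.

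The make-up of the BTG/TOB transcripts shifted accordingly. The 4 genes summed to 59.6 and 58.6 TPM in sh-NC and to 80.0 and 77.9 TPM in sh-ANP32B. Without BTG2 the sums were 55.8 and 54.6 TPM against 53.5 and 51.3 TPM, lower after knockdown although TOB2 was higher. BTG2 made up 6.43% and 6.72% of the sum in the controls but 33.1% and 34.2% after knockdown, and BTG1 51.9% and 50.8% against 32.7% and 34.3%. The 4 deadenylases summed to 210.4 and 207.7 TPM in sh-NC and 216.4 and 213.5 TPM in sh-ANP32B. For each TPM of the CAF1-type subunits CNOT7 and CNOT8, there was 0.375 TPM of BTG/TOB transcripts in both sh-NC libraries and 0.479 and 0.475 TPM in sh-ANP32B. These are RNA levels, and no protein values were analysed here.

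**Figure D3:**
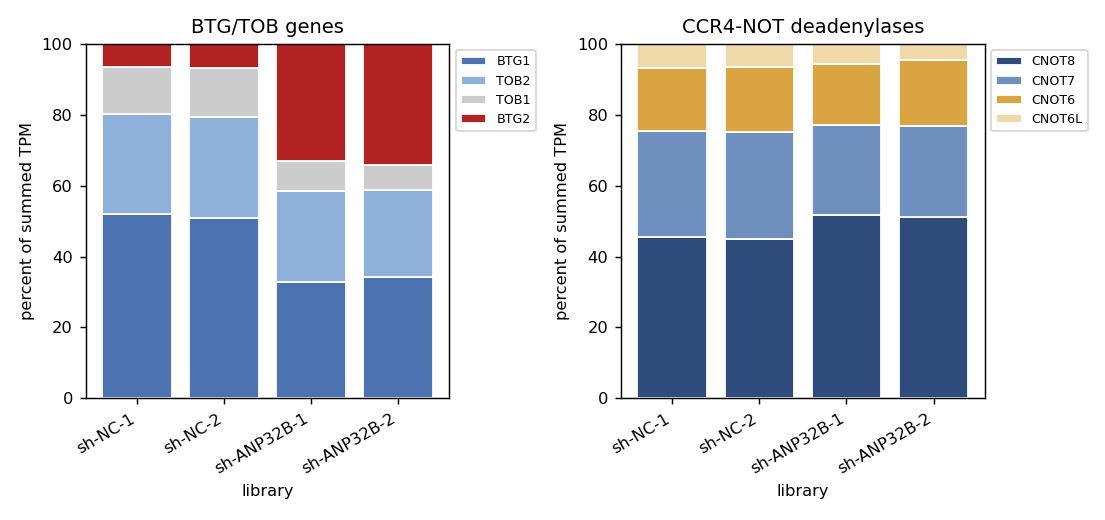
Share of each gene in the summed TPM of the 4 BTG/TOB genes (left) and of the 4 deadenylases (right), in percent, for each library. BTG2 grows from 6.43% and 6.72% to 33.1% and 34.2%, and CNOT8 from 45.4% and 45.0% to 51.7% and 51.1%.

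The 3' untranslated regions (UTRs) of the canonical transcripts were compared for elements through which CCR4-NOT is recruited. ZFP36 proteins bind AU-rich elements, here searched as ATTTA and the longer TATTTAT, and Pumilio proteins bind TGTANATA. The BTG2 UTR has 2164 bases with 2 ATTTA, of which 1 lies within its single TATTTAT, and no TGTANATA. That site is shown with its neighbours, the element in capitals, because BTG2 moved most of the group and its UTR has no other TATTTAT.
BTG2 3' UTR (chr1:203307531-203307553, plus strand): tgaagagcTATTTATatatatta
The BTG1 UTR has 3802 bases with 5 ATTTA, 1 TATTTAT and 4 TGTANATA, and the TOB1 UTR 757 bases with 4 ATTTA and no TATTTAT. CNOT6L has the longest, 7044 bases with 26 ATTTA and 2 TATTTAT. All 8 genes had at least 1 ATTTA and all but TOB1 at least 1 TATTTAT, elements found in 71.0% and 34.0% of the 11327 tested genes with such a region. Longer regions hold more of these elements, and the number of ATTTA per kb was 0.924 in BTG2 and 1.32 in BTG1, beside a median of 1.61.

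The remaining CCR4-NOT subunits, which have no deadenylase activity, did not reach the limits. None of the 7 was called by limma, beside 28.0% of all genes. Of the 7, 3 passed an adjusted p below 0.05 and 3 an unadjusted p below 0.05, all of them lower. Over all genes, 45.7% passed the adjusted and 54.1% the unadjusted p, in either direction. CNOT10, which forms a module with CNOT11, came closest with 44.3 and 45.3 TPM in sh-NC and 31.8 and 31.2 TPM in sh-ANP32B, a difference of -0.50 (standard error 0.058, adjusted p = 0.00167 from limma). That difference was just inside the limit, and it was beyond it at -0.51 with a pseudocount of 0.1. CNOT9, a subunit that binds recruiting proteins, differed by -0.36 (adjusted p = 0.00603 from limma), and the scaffold CNOT1 by -0.31 (adjusted p = 0.00526 from limma), with 108 and 112 TPM against 91.0 and 85.8 TPM. CNOT2, CNOT3, CNOT4 and CNOT11 lay between -0.16 and 0.15 and did not pass, and CNOT3 ran from -0.31 without sh-NC replicate 1 to -0.0086 without sh-NC replicate 2. The median of the 7 was -0.16.

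Among genes listed as deadenylases outside the complex, 1 of the 8 tested was called, beside 28.0% of all genes. TOE1, which acts on small nuclear RNAs, fell from 21.3 and 22.1 TPM to 13.1 and 13.7 TPM, a difference of -0.66 (standard error 0.084, adjusted p = 0.00221 from limma). PAN2 and PAN3, which start tail shortening, lay at 0.03 and -0.06, PARN at -0.17, PDE12, the mitochondrial enzyme, at -0.17, and ANGEL1 at 0.12, and none of these passed. NOCT, the circadian member, at -0.31 and ANGEL2 at 0.28 had an adjusted p of 0.0467 and 0.0207 from limma but stayed inside the limit. NOCT was at -0.193 (adjusted p = 0.149 from limma) without sh-ANP32B replicate 1, and its adjusted p from limma was 0.0792 without sh-NC replicate 1 and 0.163 without sh-NC replicate 2. ANGEL2 was at 0.181 (adjusted p = 0.0587 from limma) after median-of-ratios scaling, and its adjusted p from limma was 0.0885 without sh-NC replicate 1 and 0.0832 without sh-ANP32B replicate 2. PNLDC1 had no row.

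Among proteins that bring CCR4-NOT to mRNAs or bind poly(A) tails, 6 of 18 tested genes were called, 5 higher and 1 lower, with a median of 0.31, beside 28.0% of all genes called, and 3 were called after quantile normalization, all higher. ZFP36 (tristetraprolin), which binds AU-rich elements, rose from 22.0 and 22.1 TPM to 45.0 and 36.4 TPM, a difference of 0.85 (standard error 0.109, adjusted p = 0.00228 from limma). Its relative ZFP36L1 rose from 4.28 and 4.95 TPM to 9.14 and 8.70 TPM (difference 0.82, adjusted p = 0.00561 from limma). The far more abundant relative ZFP36L2 did not rise, with 509 and 502 TPM in sh-NC and 480 and 457 TPM in sh-ANP32B. Its difference of -0.11 was not called. PABPC1L, a poly(A)-binding protein best known from oocytes, rose most at 0.96 (adjusted p = 4.19e-04 from limma), and the cytoplasmic poly(A)-binding protein PABPC4 fell by 0.56 (adjusted p = 4.09e-04 from limma), a call lost at -0.497 after quantile normalization. PUM2 at -0.31 and PABPN1, the nuclear poly(A)-binding protein, at -0.29 passed the adjusted p but stayed inside the limit. SAMD4A, CPEB1, NANOS1 and NANOS3 had no row.

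Of the 16 decapping and 5'-3' decay genes, 4 fell and none rose past the limits, with a median of -0.25. Among all genes, 10.1% fell and 17.9% rose past them. An unadjusted p below 0.05 in limma was reached by 10 of the 16, beside 54.1% of all genes. Beside PATL1, the genes called were LSM2 (-1.13), LSM6 (-0.70) and LSM7 (-0.59), subunits of the LSM ring that binds shortened tails. Their adjusted p was 0.00719, 0.0125 and 4.74e-04 from limma. LSM2, LSM6 and LSM7 also belong to the LSM ring of the U6 small nuclear RNA. LSM1, the subunit particular to the cytoplasmic ring, lay at 0.36 (adjusted p = 0.0190 from limma), DDX6 at 0.20 and EDC3 at 0.18. EDC3 was at 0.0497 without sh-ANP32B replicate 1 and at 0.314 without sh-ANP32B replicate 2, and DDX6 at 0.107 after median-of-ratios scaling.

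BTG2 is also counted among the immediate-early genes, transcribed shortly after a stimulus. Of the 14 others tested, 4 were called higher and none lower, beside 17.9% and 10.1% of all genes. An unadjusted p below 0.05 in limma was reached by 8 of the 14, beside 54.1% of all genes. FOS rose from 27.2 and 23.6 TPM to 59.7 and 58.6 TPM, a difference of 1.19 (standard error 0.082, adjusted p = 3.11e-04 from limma). KLF2, a factor linked to quiescence, rose by 1.04 (adjusted p = 0.0111 from limma) and KLF6 by 0.66 (adjusted p = 0.00115 from limma), and JUND was called too. JUN (0.30), EGR1 (0.24), FOSB (0.20), JUNB (0.09), KLF4 (0.01), DUSP1 (-0.04) and ATF3 (-0.06) were not called. IER5 (-0.38), IER2 (-0.27) and NR4A1 (-0.22) were the lowest and stayed inside the limit, and the median of the list was 0.15. Without sh-ANP32B replicate 1 NR4A1 was at -0.0945, and without sh-ANP32B replicate 2 at -0.348. EGR2 and IER3 had no row.

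The genes known to regulate, bind or follow BTG/TOB proteins were 1 higher and 3 lower among 10 tested, with a median of -0.29. Of all genes, 17.9% were called higher and 10.1% lower. FOXO4 rose from 6.47 and 5.66 TPM to 12.9 and 11.6 TPM (difference 0.91, adjusted p = 0.00323 from limma), while FOXO1 at -0.30 and FOXO3 at -0.27 were not called. PRMT1, the arginine methyltransferase that binds BTG1 and BTG2, fell from 284 and 288 TPM to 175 and 162 TPM (difference -0.76, adjusted p = 2.55e-04 from limma). E2F1 (-1.18) and the proliferation marker MKI67 (-0.93) fell, whereas RB1 lay at -0.00. Of the D-type cyclins, CCND1, which BTG2 is known to repress, had between 0.846 and 1.02 TPM and was not tested, CCND2 lay at -0.47 (adjusted p = 0.00677 from limma) and CCND3 at -0.06. CCND2 was called at -0.52 after quantile normalization, at -0.56 after median-of-ratios scaling and at -0.52 without sh-NC replicate 2. BTG4 had no row.

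**Figure D4:**
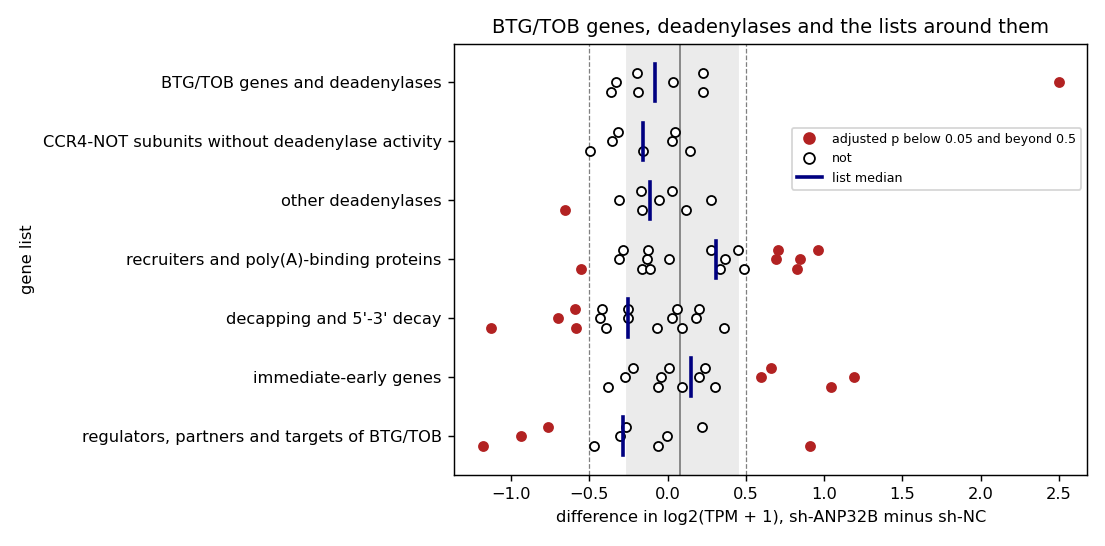
Difference in log2(TPM + 1) of each tested gene in 7 lists, filled where the gene passed an adjusted p below 0.05 and a difference beyond 0.5 in limma, with the list median as a bar. The grey band holds percentiles 25 to 75 of all genes. BTG2 at 2.50 lies beyond all genes of the other lists, the next highest being FOS at 1.19.

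The genes whose pattern over the 4 libraries was nearest to that of BTG2 were ITGAM, MVP, CD68, SEMA6B and CNR2. Nearness was the Euclidean distance of log2(TPM + 1) centred on its mean over the 4 libraries, over genes whose mean reached 10 TPM, and it ran from 0.0849 (ITGAM) to 0.150 (CNR2). ITGAM, the CD11b integrin chain of myeloid cells, had 3.51 and 3.59 TPM in sh-NC and 26.1 and 26.4 TPM in sh-ANP32B. CD68, a lysosomal protein of monocytes and macrophages, had 39.8 and 40.1 TPM against 220 and 214 TPM. With 2 groups of 2 libraries, likeness mostly means a like difference between the groups. Nearest to TOB1, which had the lowest difference, were SNX18, ALKBH2, WDR75, ARPC5L and RPL27A, at distances from 0.0226 to 0.0409.

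**Figure D5:**
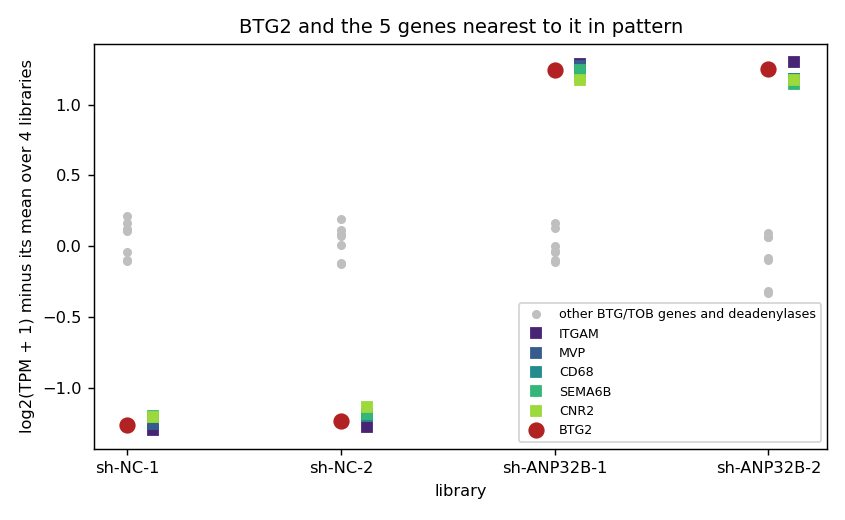
log2(TPM + 1) of BTG2, of the 5 genes nearest to it and of the other 7 BTG/TOB genes and deadenylases, each less its mean over the 4 libraries, with 1 point per library. BTG2 and its nearest genes lie together below 0 in both sh-NC libraries and above 0 in both sh-ANP32B libraries, and the others stay near 0.

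Monocyte and macrophage markers moved with BTG2. Of 10 listed, 8 had a row and all 8 were called higher, and they summed to 700.5 and 688.5 TPM in sh-NC and 6222 and 6181 TPM in sh-ANP32B, most of it LYZ. CD14 and CD163, also defining markers, had no row. In sh-NC, S100A8 was low at 0.641 and 0.199 TPM, as was S100A9 at 0.690 and 0.921 TPM. The part of this rise in the BTG2 result was not tested. In bulk RNA, a change in the share of cells of a state and a change per cell cannot be told apart.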

How the data were processed

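Total RNA of MV4-11 cells was made into TruSeq libraries, 2 of sh-NC and 2 of sh-ANP32B. Per the submitters' processing notes in the labels, the authors used HISAT2 2.0.5 and hg38. The deposited values are TPM per gene and library, a unit read from the column totals. The quantification tool, annotation and strand handling are not given in the sources used here, and the study's DESeq2 test, which needs counts, was not repeated.

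A table of gene names gave symbols for 14961 of 18885 identifiers, and positions and UTRs came from GENCODE version 44. A gene was tested where 2 or more libraries reached 1 TPM. Values were taken as log2(TPM + 1), which understates the change of low genes, and fitted with limma 3.58.1 (R 4.3.3; lmFit, then eBayes with its trend option), and p-values were adjusted over all 16937 genes. On simulated data for this comparison with 16937 genes, 199 of 200 changed genes were recovered and 4 unchanged genes were called. The simulated differences were all 1 or 2 in size, in either direction, and recovery was not split by size. None lay near the limit of 0.5, and none was placed in a gene with a mean log2(TPM + 1) of 2 or less. Recovery of such differences was therefore not tested. The simulated spread depended on the level of a gene alone. Data with as large a share of changed genes as the 28.0% called here were not tested. The genes and lists were chosen with earlier results of these data known. In lists of over 12 genes, the 3 highest and 3 lowest were named, and other names were chosen after their values were seen. Some listed genes are not reported here. Tables and plots used Python 3.11.15, pandas 2.3.3 and matplotlib 3.10.9. Alternatives were another pseudocount, filters, scalings, call limits, a replicate block and each library left out.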

Additional observations from a re-analysis of the deposited data

How the results depend on the processing

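With 2 libraries per group and no read counts, no counting error can be given for the small differences. BTG2 stayed between 2.37 and 2.74 under all settings run. Of the 8 BTG/TOB genes and deadenylases, 2 were called after quantile normalization (BTG2 and TOB1, -0.55) and 3 with an adjusted p alone. Of the CCR4-NOT subunits without deadenylase activity, 1 (CNOT10) was called with a pseudocount of 0.1, after quantile normalization and after median-of-ratios scaling, 3 passed an adjusted p alone, and 0 to 1 were called with a library left out. Quantile normalization left 3 recruiters and poly(A)-binding proteins called, without PABPC4 (-0.497). CCND2 was called after quantile normalization (-0.522), after median-of-ratios scaling (-0.561) and without sh-NC replicate 2 (-0.520). A fold limit of 1 left 1409 of all genes, 0 other deadenylases, 0 recruiters, 1 decay gene (LSM2), 2 immediate-early genes (FOS and KLF2) and 1 regulator (E2F1). LSM2 was at -0.8424 without sh-ANP32B replicate 1 and at -1.4143 without sh-ANP32B replicate 2. KLF2 was at 0.7825 without sh-NC replicate 1 and at 1.302 without sh-NC replicate 2. Median-of-ratios scaling turned CNOT2 to -0.0663, CNOT11 to -0.0459 and PAN2 to -0.0638, and quantile normalization turned RB1 to 0.0281. With each library left out in turn, PAN2 ran from -0.0239 to 0.0853, CCND3 from -0.14 to 0.0187 and RB1 from -0.0152 to 0.0081. The causes were not tested. Same-numbered libraries did not deviate together (correlation -0.0232), so the numbers were not taken as pairs. With the replicate block, 4524 genes were called in place of 4736.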

Other observations

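Around BTG2, genes starting within 250 kb were looked at after its value had been seen. CHI3L1, a chitinase-like protein of macrophages that starts 119 kb upstream, rose from 57.9 and 56.3 TPM to 146 and 140 TPM (difference 1.31, standard error 0.049, adjusted p = 8.68e-05 from limma). MYBPH, 130 kb upstream, had 1.39 and 3.07 TPM in sh-NC and 5.41 and 7.05 TPM in sh-ANP32B (difference 1.20, adjusted p = 0.0213 from limma). BTG2-DT, which starts 0.176 kb upstream on the opposite strand, had between 0.0412 and 1.46 TPM and was not tested. These 3 were the neighbours with a row.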
